A study of Homo sapiens with 12 samples.

Results

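The genes described are 10 of the IL-6 cytokine family and its signalling chain: the ligands LIF, IL11, IL6 and OSM, the receptor chains IL6R, IL6ST, LIFR and OSMR, the transcription factor STAT3 and the inhibitor SOCS3. They were found by gene symbol among the 62703 genes of the count table, and each symbol matched 1 gene. The set was chosen by measured values of the same libraries, since LIF, IL11 and IL6 were already known to be lower in LACTB KO than in WT libraries. The difference between the genotypes is therefore given for these genes as a description with no test, and so is their relation to COL1A1, because the libraries rich in COL1A1 are also those that set much of that difference. Tests are kept for the comparison of differentiations and for the interaction of genotype and differentiation, and, for other genes of the pathway, for all comparisons.

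Bulk RNA-seq of polyA RNA was measured in microglia-like cells (iMGLs) made from WTC11, a human cell line of induced pluripotent stem cells. CRISPR editing gave 3 WT clones, named J, K and L, and 3 clones with LACTB KO, named A, B and C, and each clone went through 2 differentiations, which gave 12 libraries, 6 per genotype. The study asked how gene expression in microglia differs when LACTB, a mitochondrial serine protease, is lost. All 12 cultures received IL34 at 100 ng/ml, TGFb at 50 ng/ml and MCSF at 25 ng/ml, were replated at day 24 with CX3CL1 and CD200 at 100 ng/ml each, had no further treatment and were collected at day 27. Each line is 1 clone, so the clone is the unit that carries the edit, and a clone's libraries share its genome. No IL-6 family cytokine is named among the added factors.

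Cytokines of this family act through a receptor chain that depends on the ligand (IL6R for IL6, IL11RA for IL11, LIFR for LIF, OSMR or LIFR for OSM) together with the shared chain gp130, which IL6ST encodes. Receptor-bound JAK kinases phosphorylate STAT3, which enters the nucleus and switches on genes such as SOCS3, whose protein in turn blocks the receptor complex. In brain and other tissues, myeloid cells are known sources of OSM and carry IL6R, while LIF, IL11 and IL6 are made in large amounts by stimulated fibroblasts and other stromal cells. IL6 is not particular to stromal cells. The study also followed it in single-cell data of human microglia and measured IL-6 protein released by iMGLs.

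Libraries held between 24153233 and 28406943 estimated counts, with 26540798 to 28406943 in WT and 24153233 to 27836254 in LACTB KO. LACTB had 69.5 to 97.7 CPM (each count divided by its library's total, with TMM scaling) in the WT libraries, 7.57 to 9.77 CPM in clones A and C, and 44.8 and 51.4 CPM in the libraries of clone B, which thus kept more of the transcript than the other two LACTB KO clones. The 16 microglial markers were detected in both genotypes at a summed level of 7645 to 9893 CPM in WT against 7601 to 8408 CPM in LACTB KO, with CSF1R highest (mean 1742 CPM) and TMEM119 lowest (1.72 CPM). The 20 stromal markers other than collagens summed to 174 to 8301 CPM in WT against 146 to 1574 CPM in LACTB KO, with FN1 highest (mean 961 CPM) and PDGFRA lowest (0.113 CPM). The 8 collagen genes summed to 50.5 to 10170 CPM in WT against 24.6 to 1045 CPM in LACTB KO. WT clone J in differentiation 1 and WT clone K in differentiation 2 stood apart, with 6282 and 8301 CPM of the stromal list against at most 1574 CPM elsewhere, so results that rest on them are given with and without them. They also stood out in other lists, with 213 CPM of the epithelial genes in the former and 29.1 CPM of the neural genes in the latter. FN1 made up much of their stromal sums, at 3524 CPM in the former and 5344 CPM in the latter. Other stromal genes differed between them, with POSTN at 0.258 and 95.6 CPM and DCN at 82.4 and 1.12 CPM, in that order. Marker sums for the other cell types were 323 to 443 CPM for 7 endothelial genes (PECAM1 mean 375 CPM, CDH5 0.0184 CPM), 54.2 to 213 CPM for 6 epithelial genes (KRT8 33.5 CPM, CLDN4 0.665 CPM), 3.24 to 27.9 CPM for 8 granulocyte and mast cell genes (KIT 15.4 CPM, PRTN3 at 0), 4.83 to 29.1 CPM for 7 neural genes (TUBB3 4.81 CPM, DCX 0.165 CPM) and at most 0.579 CPM for 5 pluripotency genes (POU5F1 0.0913 CPM, DPPA4 at 0).

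Per unit of transcript length, IL6R, IL6ST and STAT3 were far more abundant in these cells than any ligand of the family. IL6R had a median of 350 TPM (counts per base of exon, scaled to the same total in each library; range over the 12 libraries 261 to 421), above IL6ST with 71.2 TPM (58.1 to 87.2) and STAT3 with 70.0 TPM (58.2 to 89.7). SOCS3 followed with 16.4 TPM (6.59 to 57.0) and OSM with 2.38 TPM (0.343 to 7.35). OSMR (0.983 TPM, 0.614 to 2.66), LIF (0.565 TPM, 0.148 to 11.2), IL11 (0.188 TPM, 0 to 3.67), IL6 (0.158 TPM, 0.0331 to 0.577) and LIFR (0.119 TPM, 0.0475 to 0.759) made up the low end. Of neighbours in this order, IL6R and IL6ST did not overlap in any library, nor did STAT3 and SOCS3, whereas IL6ST and STAT3, SOCS3 and OSM, and all neighbours from OSM down had overlapping ranges. The ligand that stood highest was OSM, and the receptor chains for LIF and OSM were at the low end with the ligands.

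The sequence before the transcription start is shown for IL11, the ligand with the steepest slope on COL1A1 within clones, and for IL6, which gives the family its name, with matches to known motifs in capitals. RefSeq windows on GRCh38.p14 were found for 8 of the 10 genes (11 windows), and not for LIF and OSM. In IL11 (chr19:55370464-55370713, minus strand, directly upstream of the annotated gene) the capitals mark an AP-1 match, and in IL6 (chr7:22726950-22727146, plus strand) they mark, in order, a C/EBP and an NF-kB match. The IL6 stretch lies in an intron of an annotated IL6 transcript with an earlier start, and of IL6-AS1 and STEAP1B on the other strand, and ends where the first exon of other IL6 transcripts begins.
IL11: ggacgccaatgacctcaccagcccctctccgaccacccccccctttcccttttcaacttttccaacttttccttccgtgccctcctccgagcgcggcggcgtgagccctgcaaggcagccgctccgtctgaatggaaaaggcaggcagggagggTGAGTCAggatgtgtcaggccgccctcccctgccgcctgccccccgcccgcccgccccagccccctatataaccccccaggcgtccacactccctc
IL6: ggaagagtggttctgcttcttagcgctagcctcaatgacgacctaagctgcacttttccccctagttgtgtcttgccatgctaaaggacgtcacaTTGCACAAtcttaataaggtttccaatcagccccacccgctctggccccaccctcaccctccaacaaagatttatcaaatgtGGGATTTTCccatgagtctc

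Both strands of the 250 bases before each start were searched for TGANTCA (AP-1), TTCNNNGAA (STAT), GGGNNTTTC (NF-kB) and TTGCNNAA (C/EBP), where N is any base. Of 35116 windows of all genes, 6.57% held the AP-1 letters, 6.57% the STAT letters, 4.16% the NF-kB letters and 9.05% the C/EBP letters. Counted from the RefSeq start, the IL11 match began 96 bases before it, and those of IL6 began 155 and 73 bases before it. For IL6 that start lies beyond the end of the printed stretch. A STAT match was present in windows of LIFR, 165 and 182 bases before 2 different starts, and a C/EBP match in windows of LIFR and OSMR. None of the 4 patterns was found in the windows of IL6R, IL6ST, STAT3 or SOCS3. The LIFR windows lie inside the annotated gene. Those of LIFR and SOCS3 belong to other RefSeq starts and do not cover the bases directly before the annotated start of either gene. Those stretches were not searched, so whether they hold any of the patterns is not known. The hits reported here are matches of letters, and nothing about binding was measured.

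LIF (ENSG00000128342.5, chr22:30240453-30246759, minus strand), the ligand that keeps mouse embryonic stem cells undifferentiated in culture, had the widest spread in CPM of the ligands in WT. In differentiations 1 and 2, in that order here and for the genes that follow, the WT clones had 3.50 and 1.45 CPM (J), 0.146 and 10.2 CPM (K) and 2.24 and 0.267 CPM (L). The LACTB KO clones had 0.703 and 0.224 CPM (A), 0.439 and 0.808 CPM (B) and 0.143 and 0.188 CPM (C). All 6 LACTB KO libraries were below the WT median of 1.84 CPM, but the lowest WT library was level with the lowest of LACTB KO, so the libraries overlapped. Of the 500 LIF counts in WT, 77% came from WT clone J in differentiation 1 and WT clone K in differentiation 2, and LACTB KO held 67 counts in all.

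IL11 (ENSG00000095752.7, chr19:55364382-55370463, minus strand), a cytokine that fibroblasts secrete on stimulation with TGF-beta, had a similar layout at a lower level. WT clones had 2.47 and 0.298 CPM (J), 0.0364 and 1.65 CPM (K) and 0.826 and 0 CPM (L). LACTB KO clones had 0.0828 and 0.0374 CPM (A), 0.146 and 0.387 CPM (B) and 0 and 0.113 CPM (C). In 6 of the 12 libraries it had 3 counts or fewer, which is the floor used here. The same pair of WT libraries held 77.6% of its 147 WT counts, against 21 counts in LACTB KO.

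IL6 (ENSG00000136244.12, chr7:22725884-22732002, plus strand), the inflammatory cytokine for which the family is named, was barely detected. Its levels were 0.627 and 0.260 CPM (J), 0.0364 and 0.527 CPM (K) and 0.103 and 0.496 CPM (L) in WT. In LACTB KO they were 0.414 and 0.112 CPM (A), 0.0732 and 0.211 CPM (B) and 0.107 and 0.0377 CPM (C). These values stand for 1 to 17 counts per library, 56 in WT and 25 in LACTB KO, with 6 libraries at 3 counts or fewer, and 5 of the 6 LACTB KO libraries were below the WT median. The kit did not mark strand and the strand setting of the counting is not given in the sources used here. Exons of STEAP1B on the other strand overlap those of IL6 and held 203 counts over the 12 libraries, so reads of the pair cannot be told apart there.

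OSM (ENSG00000099985.4, chr22:30262829-30266851, minus strand), a ligand made by activated myeloid cells, was arranged differently. WT libraries had 3.58 and 4.28 CPM (J), 2.99 and 0.808 CPM (K) and 0.172 and 3.51 CPM (L). LACTB KO libraries had 1.57 and 1.05 CPM (A), 2.05 and 0.633 CPM (B) and 0.250 and 0.829 CPM (C). In clones J, K, L and B the library with less OSM was the one with more LIF and IL11. In A and C OSM and LIF were higher in the same library, as was IL11. WT clone J in differentiation 1 and WT clone K in differentiation 2 held 29% of the 414 OSM counts in WT, and LACTB KO held 169 counts. All 6 LACTB KO libraries were below the WT median of 3.25 CPM, but the WT library of K in differentiation 2 lay among them and that of L in differentiation 1 was the lowest of all 12.

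**Figure D1:**
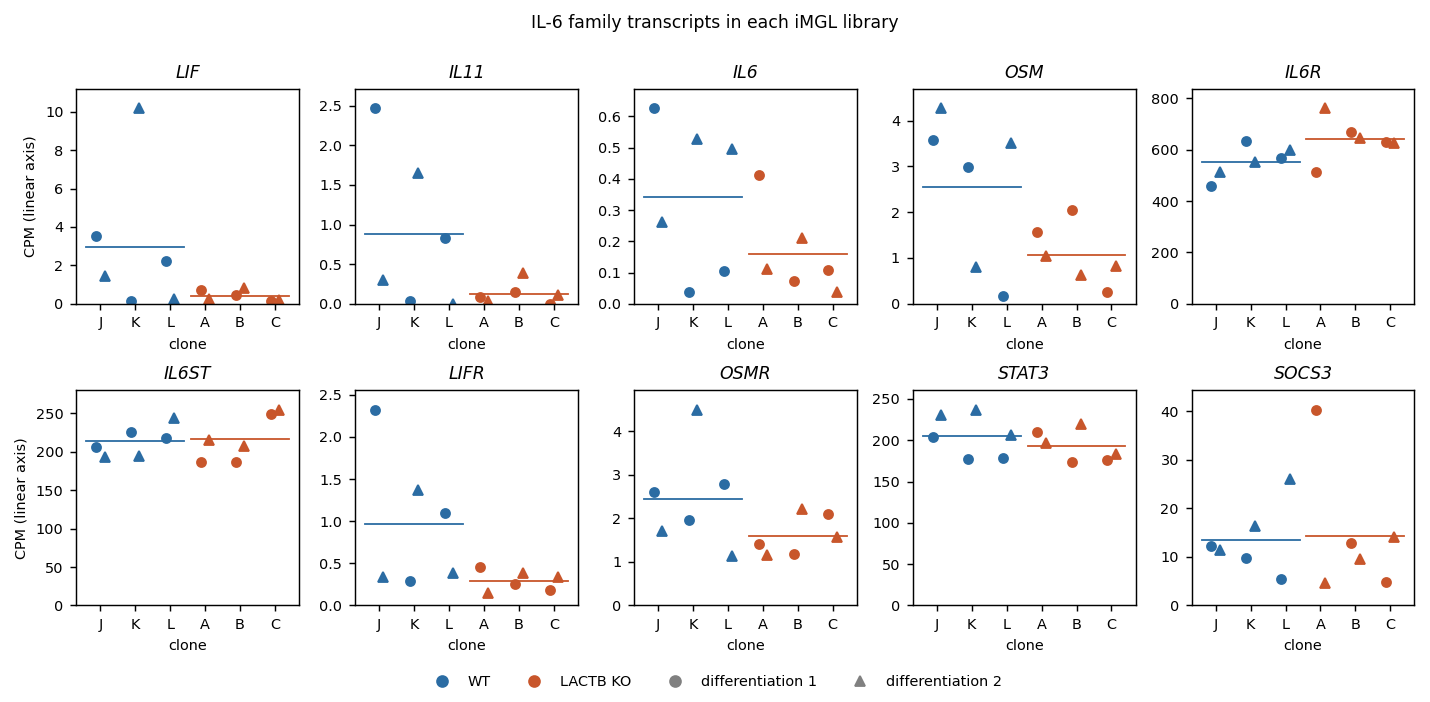
CPM of each of the 10 genes in the 12 libraries on linear axes that start at 0, with clones on the horizontal axis, WT in blue, LACTB KO in orange, circles for differentiation 1, triangles for differentiation 2 and a line at the mean of the 6 libraries of a genotype. LIF, IL11 and LIFR were high in a few WT libraries (LIF 10.2 CPM in clone K, differentiation 2), whereas IL6R, IL6ST and STAT3 lay within narrow bands in all 12.

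Among the receptor chains, IL6R (ENSG00000160712.13, chr1:154405193-154469450, plus strand), which binds IL6, had 458 to 634 CPM in WT (median 558) against 512 to 762 CPM in LACTB KO (median 636). Only 1 LACTB KO library, clone A in differentiation 1, was below the WT median, yet the ranges overlapped. IL6ST (ENSG00000134352.21, chr5:55935095-55995022, minus strand), the shared chain gp130, had 193 to 243 CPM in WT (median 212) against 186 to 255 CPM in LACTB KO (median 211). The gp130 transcript thus differed by less than the spread within either genotype. Exons of a lncRNA on the opposite strand (ENSG00000262211) overlap IL6ST and held 1531.9 counts over the 12 libraries against 35266 IL6ST counts in WT alone.

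LIFR (ENSG00000113594.10, chr5:38474668-38608354, minus strand), the LIF receptor chain, had 2.32 and 0.335 CPM (J), 0.291 and 1.37 CPM (K) and 1.10 and 0.382 CPM (L) in WT, against 0.455 and 0.149 CPM (A), 0.256 and 0.387 CPM (B) and 0.178 and 0.339 CPM (C) in LACTB KO. The 3 highest values belonged to the WT libraries that were also highest in LIF and IL11, and those of J in differentiation 1 and K in differentiation 2 held 63.4% of the 161 WT counts. OSMR (ENSG00000145623.13, chr5:38845858-38945596, plus strand), the OSM receptor chain, had 2.62 and 1.71 CPM (J), 1.97 and 4.50 CPM (K) and 2.79 and 1.15 CPM (L), against 1.41 and 1.16 CPM (A), 1.17 and 2.21 CPM (B) and 2.10 and 1.58 CPM (C). All LACTB KO libraries were below the WT medians of 0.742 CPM for LIFR and 2.29 CPM for OSMR. RICTOR, on the opposite strand with overlapping exons, held 16811 counts against 410 OSMR counts in WT and 261 in LACTB KO, so part of the OSMR reads cannot be told apart from RICTOR reads.

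STAT3 (ENSG00000168610.16, chr17:42313324-42388540, minus strand), the transcription factor of the chain, had 178 to 237 CPM in WT (median 205) against 173 to 219.5 CPM in LACTB KO (median 190). SOCS3 (ENSG00000184557.4, chr17:78356778-78360077, minus strand), the feedback inhibitor that STAT3 induces, had 12.2 and 11.4 CPM (J), 9.73 and 16.4 CPM (K) and 5.47 and 26.0 CPM (L) in WT. In LACTB KO it had 40.3 and 4.67 CPM (A), 12.8 and 9.53 CPM (B) and 4.78 and 14.1 CPM (C). SOCS3 thus spanned an 8.62-fold range over libraries while STAT3 spanned 1.37-fold, and the extremes of SOCS3 were the libraries of a single clone, A. The median of SOCS3 was 11.8 CPM in WT against 11.1 CPM in LACTB KO, and 3 of 6 LACTB KO libraries were below the WT median.

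Set side by side, the genotypes differed most in LIF, IL11 and LIFR and least in IL6ST, SOCS3 and STAT3. The means were 2.96 ± 3.75 CPM for LIF in WT against 0.418 ± 0.283 CPM in LACTB KO (SD, n = 6 libraries each), 0.880 ± 0.995 against 0.128 ± 0.137 CPM for IL11, 0.342 ± 0.243 against 0.159 ± 0.138 CPM for IL6, and 2.56 ± 1.66 against 1.06 ± 0.653 CPM for OSM. LIFR had 0.967 ± 0.802 against 0.294 ± 0.120 CPM and OSMR 2.45 ± 1.17 against 1.61 ± 0.458 CPM, so that the SD of WT was close to or above its mean for LIF, IL11 and LIFR. IL6R had 554 ± 62.7 against 640.5 ± 80.6 CPM, IL6ST 214 ± 19.5 against 216 ± 29.6 CPM, STAT3 206 ± 24.8 against 193 ± 18.8 CPM and SOCS3 13.5 ± 7.06 against 14.3 ± 13.3 CPM. In bulk RNA, fewer cells of a type and less RNA per cell cannot be told apart for any of these.

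On clone sums (edgeR, 3 clones against 3), the log2 fold change of LACTB KO against WT was -2.86 (SE 0.652) for LIF, -2.78 (SE 0.713) for IL11, -1.12 (SE 0.492) for IL6 and -1.27 (SE 0.464) for OSM. It was 0.21 (SE 0.0928) for IL6R, 0.02 (SE 0.114) for IL6ST, -1.75 (SE 0.319) for LIFR and -0.63 (SE 0.262) for OSMR. STAT3 had -0.10 (SE 0.0800) and SOCS3 0.06 (SE 0.310). The means of the clones did not overlap between genotypes for 7 of the 10 genes: they were lower in all 3 LACTB KO clones for LIF, IL11, IL6, OSM, LIFR and OSMR, and higher for IL6R. Over all 17577 genes tested, 6.2% had clone means that were all lower in LACTB KO and 4.53% all higher, and since the genes were chosen with this contrast in view, nothing is read from their count. Of all genes, 0% passed an adjusted p of 0.05 in this contrast and 6.36% had an unadjusted p under 0.05 (edgeR quasi-likelihood test, Benjamini-Hochberg adjustment); DESeq2 called 171 genes. LACTB itself had a log2 fold change of -1.87 (SE 0.675, edgeR adjusted p = 0.735).

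The difference in LIF, IL11, LIFR and IL6 was smaller without the 2 stromal-rich WT libraries, while that in OSM was not. With WT clone J in differentiation 1 and WT clone K in differentiation 2 left out, the log2 fold change was -1.23 for LIF, -1.06 for IL11, -0.39 for IL6, -0.72 for LIFR and -0.24 for OSMR, but -1.51 for OSM. With differentiation and log2 CPM of COL1A1 as covariates over the 12 libraries, LIF had -0.64, IL11 -0.42, IL6 -0.47, LIFR -0.70 and OSMR -0.25, but OSM had -1.35. IL6R kept a positive value under both (0.16 and 0.13). The fit with covariates had no term for clone, so a clone's libraries counted in it as separate samples. COL1A1 itself was higher on average in WT, at 1067 ± 1523 CPM against 96.3 ± 171 CPM (SD, n = 6 libraries each). Without LACTB KO clone B, which kept more LACTB transcript, the log2 fold change was -3.29 for LIF, -3.93 for IL11, -1.06 for IL6 and -1.47 for OSM. Limma voom with clone as a random effect gave -1.95 for LIF, -1.76 for IL11, -1.38 for LIFR, -0.98 for OSM and -0.24 for SOCS3, whose sign was positive on clone sums. Differentiation 1 alone and differentiation 2 alone gave -2.23 and -3.28 for LIF, -0.82 and -1.78 for OSM, -2.09 and -1.26 for LIFR, and 1.06 and -0.94 for SOCS3, whose sign thus differed between the differentiations.

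**Figure D2:**
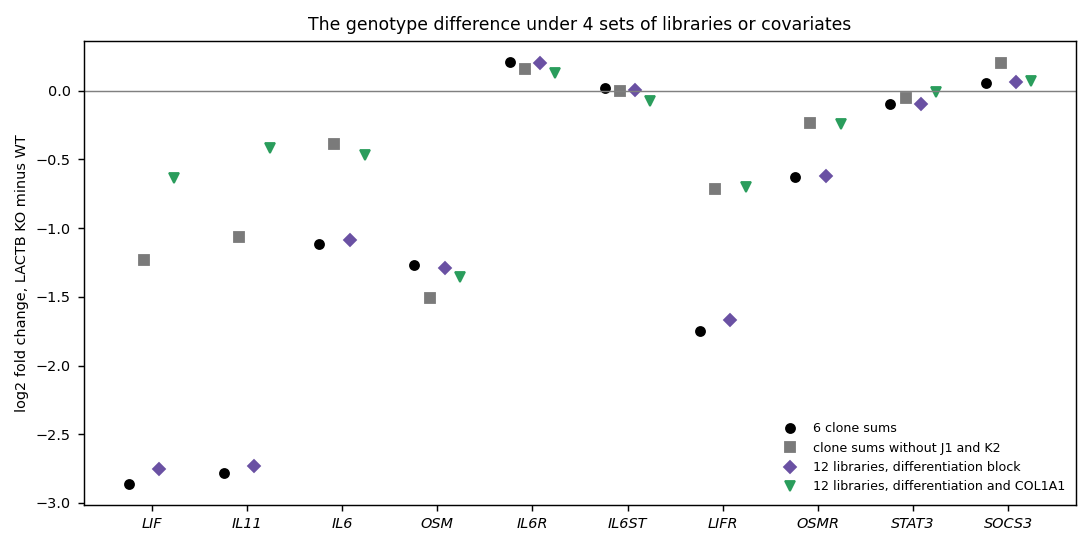
Log2 fold change of LACTB KO against WT for each gene, as fitted to the 6 clone sums (black circles), to clone sums without WT clone J differentiation 1 and WT clone K differentiation 2 (grey squares), to 12 libraries with differentiation as a block (purple diamonds), and to 12 libraries with differentiation and COL1A1 as covariates (green triangles). LIF moved from -2.86 to -1.23 and -0.64, and IL11 from -2.78 to -1.06 and -0.42, while OSM stayed between -1.51 and -1.27.

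COL1A1 encodes a chain of type I collagen and is a typical product of fibroblasts and other stromal cells rather than of microglia, so its level per library was set beside the ligands. In WT it had 3573 and 241 CPM (J), 7.51 and 2359 CPM (K) and 204 and 19.4 CPM (L). In LACTB KO it had 49.3 and 17.3 CPM (A), 49.1 and 444 CPM (B) and 10.6 and 7.23 CPM (C). The libraries highest in COL1A1 were not all of one differentiation: K and B had more in differentiation 2, and the other 4 clones more in differentiation 1.

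Over the 12 libraries, Pearson's r between log2 CPM of the gene and of COL1A1 was 0.938 for LIF, 0.930 for IL11, 0.682 for IL6, 0.822 for LIFR, 0.677 for OSMR and 0.629 for STAT3, but 0.0633 for OSM and 0.108 for SOCS3. Spearman's rho was 0.937 for LIF, 0.825 for IL11, 0.741 for IL6 and 0.105 for OSM. IL6R (r of -0.635) and IL6ST (-0.577) ran the other way. The points share clones, 2 libraries to a clone, and the totals by which CPM is scaled, so these are descriptions. Without the 2 libraries farthest from the median of COL1A1, again J in differentiation 1 and K in differentiation 2, r was 0.904 for LIF and 0.823 for IL11, but 0.528 for LIFR and 0.400 for IL6. Within WT and within LACTB KO libraries separately, r was 0.948 and 0.896 for LIF, 0.952 and 0.804 for IL11, 0.643 and 0.565 for IL6, and 0.863 and 0.498 for LIFR.

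**Figure D3:**
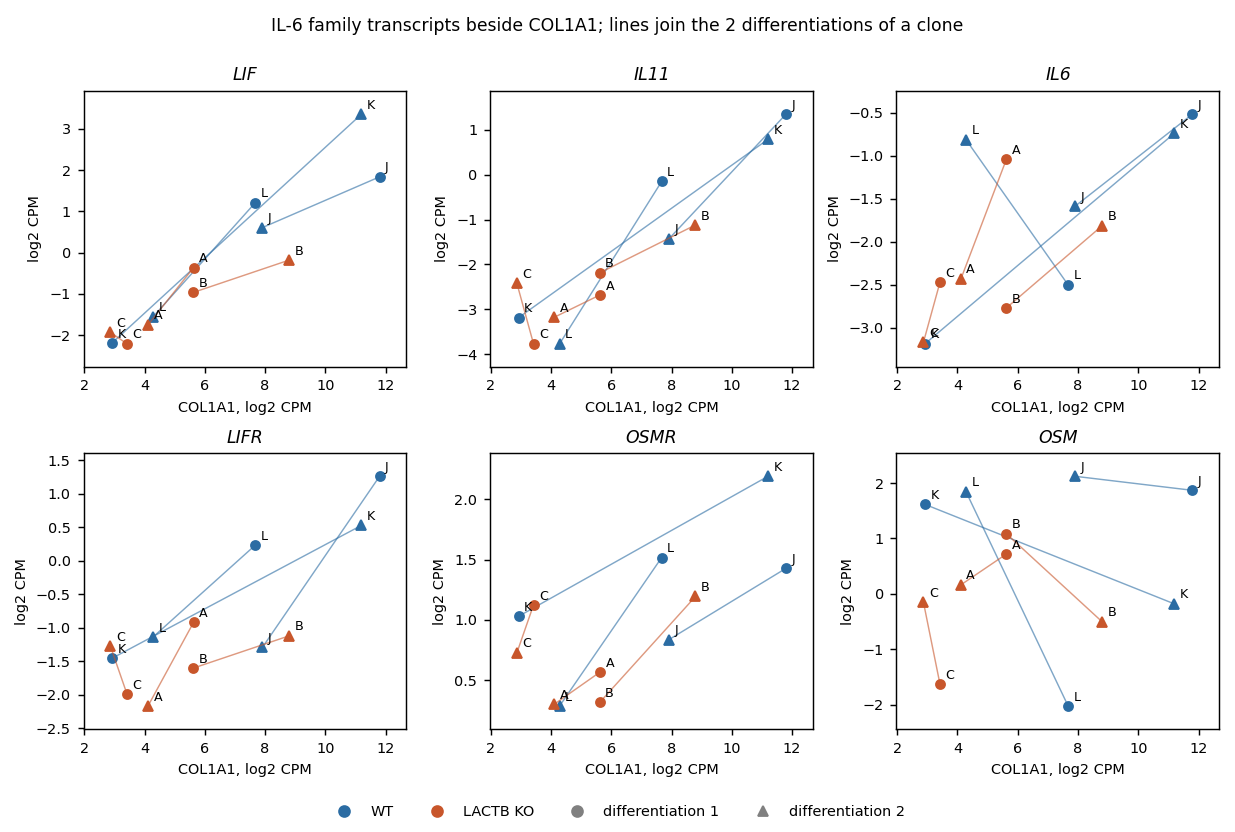
Log2 CPM of 6 genes (vertical) against log2 CPM of COL1A1 (horizontal) in the 12 libraries, with lines that join the differentiations of a clone, letters for clones, WT in blue, LACTB KO in orange, circles for differentiation 1 and triangles for differentiation 2. The lines rise with COL1A1 in 5 of 6 clones for LIF, IL11, IL6 and LIFR, in 6 of 6 for OSMR and in 1 of 6 for OSM.

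Within clones, LIF and IL11 had the steepest slopes on COL1A1. A slope on log2 CPM of COL1A1 was fitted to the 12 libraries with a term for each clone (edgeR), which leaves the mean difference between the genotypes out. WT clone J in differentiation 1 and WT clone K in differentiation 2, the highest in COL1A1, also held most WT counts of LIF and IL11, so the values that chose these genes and those of the slope are partly the same, and the slopes of the 10 genes are given with no test. The slope was 0.63 log2 units per log2 unit of COL1A1 for LIF (SE 0.0910) and 0.74 for IL11 (SE 0.155). From differentiation 1 to 2 of clone K, COL1A1 differed by 8.28, LIF by 5.55 and IL11 by 3.97 log2 units. In clone J the differences were -3.89 for COL1A1, -1.23 for LIF and -2.78 for IL11, and in clone L they were -3.39, -2.76 and -3.61. Clone C was the exception for both ligands, with -0.55 for COL1A1, 0.28 for LIF and 1.34 for IL11, at 4 and 5 LIF counts.

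LIFR had a slope of 0.36 (SE 0.0911), OSMR of 0.19 (SE 0.0456) and IL6 of 0.30 (SE 0.153), and OSM had one of the opposite sign, -0.30 (SE 0.124). The slopes of IL6R (-0.03), IL6ST (-0.01), STAT3 (0.04) and SOCS3 (0.02) were near 0. By sign, 7 of the 10 genes had a positive slope, with a median of 0.11. Over the 17334 genes fitted the median was 0.00062. Since the values that chose these genes are partly those of the slope, nothing is read from this count or median.

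Without WT clone K the slope of LIF was 0.50 and that of IL11 0.82. Without both J in differentiation 1 and K in differentiation 2 the slopes were 0.64 and 0.87. Clones J and K then had 1 library each, so those values rest on clones L, A, B and C alone. In these clones IL11 had 24 and 0 counts (L), 2 and 1 (A), 4 and 11 (B) and 0 and 3 (C). Over the fits that leave out 1 clone, the slope ranged from 0.50 to 0.71 for LIF and from 0.65 to 0.82 for IL11. With the mean of the 20 stromal markers in place of COL1A1, LIF had a slope of 0.91 and IL11 of 1.07. The comparison places both ligands beside a stromal transcript, and which cells held the transcripts was not measured.

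No gene of the family passed the test for a difference between the differentiations or for a difference of that change between genotypes. Differentiation 2 against 1 within clones gave log2 changes of -0.20 (SE 1.10) for LIF, -0.20 (SE 1.55) for IL11, 0.40 (SE 0.822) for IL6, 0.10 (SE 0.777) for OSM and -0.41 (SE 0.716) for LIFR, with adjusted p from 0.922 to 0.987. The ligands thus differed widely between a clone's libraries, but in opposite directions in different clones: LIF differed by 5.55 log2 units in K and by -2.76 in L. OSM differed by -1.80 in K and by 3.87 in L, and SOCS3 by -3.09 in A and by 2.23 in L. STAT3 had the smallest p (0.17, SE 0.0796, unadjusted p = 0.0637, adjusted p = 0.583). Of all 17335 genes, 0% passed an adjusted p of 0.05 in edgeR, 9.13% had an unadjusted p under 0.05, and DESeq2 called 299. None of the 10 was called by DESeq2, which gave no adjusted p for LIF, IL11, IL6 and LIFR. For the interaction (the change from differentiation 1 to 2 in LACTB KO minus that in WT), the adjusted p was 1 for all 10 genes (LIF 0.21, SE 2.36; SOCS3 -1.55, SE 1.24), 0% of genes passed, 0.986% had an unadjusted p under 0.05, and DESeq2 called 0.

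**Figure D4:**
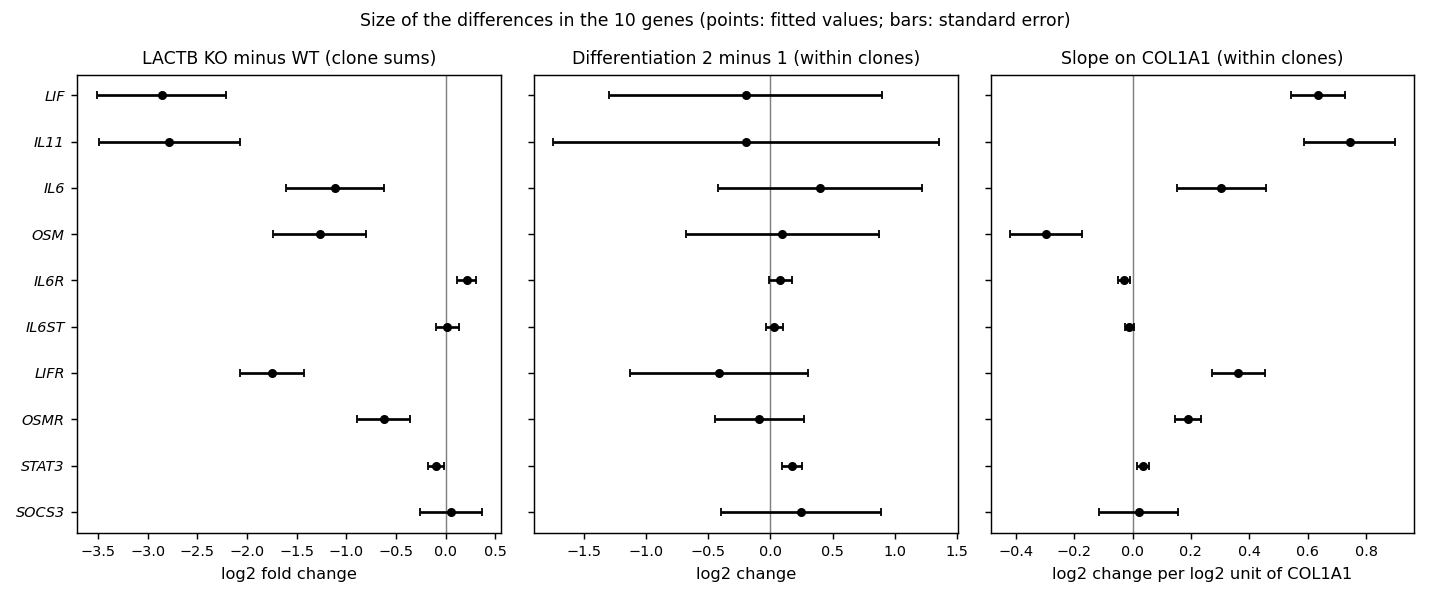
Fitted values (points) with standard errors (bars) for the 10 genes in 3 comparisons on log2 axes: LACTB KO minus WT on clone sums, differentiation 2 minus 1 within clones, and the slope per log2 unit of COL1A1 within clones. LIF and IL11 lie farthest from 0 on the left (-2.86 and -2.78) and on the right (0.63 and 0.74), and their bars cross 0 in the middle.

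The rest of the pathway was read from a list of 37 other genes, of which 32 had enough counts to be tested. Between the genotypes 0 of the 32 passed the adjusted threshold in edgeR and 0 in DESeq2, and 1 had an unadjusted p under 0.05 beside 6.36% of all genes; 18 had a higher and 14 a lower value in LACTB KO, and the median log2 fold change was 0.019 beside 0.0067 over all genes. All 4 of the tested other ligands were lower in value. CTF1, cardiotrophin 1, had a log2 fold change of -1.52 (SE 0.508, adjusted p = 0.726) at 0.585 ± 0.337 CPM for WT against 0.201 ± 0.173 CPM for LACTB KO (SD, n = 6 libraries each). Of the other receptors, IL27RA, a chain of the IL-27 receptor, had 0.21 (adjusted p = 0.879) and IL11RA, the receptor for IL11, -0.08 (adjusted p = 0.948). Of 9 kinases and transducers 6 were higher in value, with TYK2, a JAK kinase, at 0.15 (adjusted p = 0.878) and ADAM17, the protease that sheds IL6R, at -0.08 (adjusted p = 0.879). Of 5 inhibitors 4 were higher in value, with the phosphatase PTPN6 at 0.12 (adjusted p = 0.883) and PIAS3, an inhibitor of STAT3, at 0.11 (adjusted p = 0.895). Of 12 STAT3 target genes 7 were higher in value, with PIM1, a survival kinase, at 0.18 and the growth regulator MYC at 0.20 (adjusted p = 0.878 for both).

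Between the differentiations 0 of the 32 genes passed in edgeR or in DESeq2, which gave no adjusted p for 4705 of all genes, and 5 had an unadjusted p under 0.05 beside 9.13% of all genes. Those were EBI3, a subunit of IL-27 (log2 change of 0.29, adjusted p = 0.538), IL27RA (-0.42, adjusted p = 0.385), TYK2 (-0.21, adjusted p = 0.473), ADAM10, a shedding protease (0.14, adjusted p = 0.477), and BCL2L1, which blocks cell death (0.26, adjusted p = 0.346). Per role, the next included IL11RA (-0.33, adjusted p = 0.750), PIAS3 (-0.12, adjusted p = 0.841), PTPN6 (0.05, adjusted p = 0.873) and the transcriptional repressor BCL6 (0.24, adjusted p = 0.582). The interaction called 0 of the 32, and 0 had an unadjusted p under 0.05. By role, its smallest p belonged, among others, to CNTF (-0.62), IL27RA (0.42) and IL11RA (-0.21), the docking protein GAB1 (0.40) and the kinase JAK2 (0.22), PIAS3 (0.22) and SOCS1 (0.50), and the metalloproteinase inhibitor TIMP1 (-0.53) and MYC (-0.24), all with an adjusted p of 1.

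In the slope on COL1A1, 1 of the 32 genes rose past the threshold, a share near the 2.65% of all genes that passed (432 with a positive and 28 with a negative slope). It was BCL3, an IkB family protein and STAT3 target gene (slope of 0.17, SE 0.0286, adjusted p = 0.0135). In differentiations 1 and 2 it had 11.8 and 8.66 CPM (J), 8.71 and 21.8 CPM (K) and 14.8 and 11.1 CPM (L) in WT, against 14.3 and 8.67 CPM (A), 9.29 and 17.4 CPM (B) and 9.24 and 9.04 CPM (C) in LACTB KO. Its highest libraries were those of K and B in differentiation 2, which were also the high COL1A1 libraries of those clones, and without clone K 0 of the list passed. An unadjusted p under 0.05 was found for 6 of the list beside 13.5% of all genes, and 23 of the 32 slopes were positive. JUNB, an AP-1 subunit, had a slope of -0.25 (adjusted p = 0.134), the phosphatase PTPN2 of 0.05 (adjusted p = 0.191) and PIAS3 of 0.05 (adjusted p = 0.363). The 2 tested receptors and the kinases and transducers had values near 0, with IL27RA at -0.02 (adjusted p = 0.882), IL11RA at 0.02 (adjusted p = 0.923), ADAM17 at -0.04 (adjusted p = 0.424) and the phosphatase PTPN11, which couples gp130 to the MAP kinase pathway, at -0.02 (adjusted p = 0.502). EBI3 had 0.03 (adjusted p = 0.744).

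The genes whose log2 CPM followed each member most closely over the 12 libraries were ranked among 17334 genes by Pearson's r, again over libraries that share clones. LIF was nearest to F2RL2 (0.987), a protease-activated receptor, ECE1 (0.974), the endothelin-converting enzyme, and WWTR1 (0.970), the Hippo pathway coactivator TAZ, with COL1A1 at rank 66. IL11 was nearest to FLNC (0.971), a filamin, SYDE1 (0.969) and GLI2 (0.965), a transcription factor of hedgehog signalling, with COL1A1 at rank 81. IL6 had looser neighbours, NUMBL (0.904), HAND2-AS1 (0.890) and TNIP3 (0.873), with COL1A1 at rank 241. LIFR lay nearest to TRNP1 (0.937), ANGPTL2 (0.934), a secreted angiopoietin-like protein, and TLL1 (0.930), a protease that processes procollagen, and OSMR to PTPN3 (0.965), TEAD2 (0.948), a DNA-binding partner of TAZ, and PCDH1 (0.933), a protocadherin.

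The remaining members had other neighbours. OSM lay nearest to ERLEC1 (0.947), a lectin of the endoplasmic reticulum, and TMEM59 (0.912). IL6R lay nearest to CKAP2L (0.938), TDRD7 (0.933) and ZNF689 (0.920), IL6ST to YPEL2 (0.950), ARID4A (0.944) and CILK1 (0.921), STAT3 to TRIM61 (0.927), NAIP (0.918) and TAF13 (0.915), and SOCS3 to XPOT (0.890), a tRNA export factor, AHSA1 (0.889), an HSP90 cochaperone, and BRD7P2 (0.888), a pseudogene. Among the members themselves, r was 0.922 between LIF and IL11, 0.854 between LIF and LIFR, 0.894 between IL11 and LIFR and 0.746 between LIF and OSMR, but 0.527 between OSM and SOCS3 and 0.543 between IL6 and SOCS3.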

How the data were processed

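Paired-end polyA RNA-seq libraries of iMGLs were analysed, 12 in all, from 3 WT and 3 LACTB KO clones with 2 differentiations each. The authors trimmed adapters, used STAR for alignment to hg38 and deposited a table of estimated counts for each gene and library, which were not scaled to each other; the counting tool, its strand setting and the annotation are not given in the sources used here. Of the values of a library 10.8% to 11.5% were not whole, and values were rounded before use. WT columns are named as scrambled controls, and their group follows the labels. The submitters' processing notes name R 4.3.3.

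GENCODE 44 on GRCh38, in which 62686 of the gene identifiers were found, gave coordinates and exon lengths. CPM were scaled by TMM, log2 CPM used a prior count of 2, TPM used the union of exons, and 3 counts or fewer were taken as the floor. edgeR 4.0.16 in R 4.3.3 (filterByExpr, quasi-likelihood test, Benjamini-Hochberg adjustment over all genes tested, threshold 0.05) was run on counts summed per clone for the genotypes, and on the single libraries, with a term for each clone, for the differentiations, the interaction and the slope on COL1A1. That slope was tested for the pathway list alone, and is a description for the members. Each SE printed is the absolute fitted value divided by the square root of the quasi-likelihood F statistic of edgeR. For the members, the SE of the genotype difference and of the slope is not to be read as a test. The study's own mixed model (DREAM) was not used here, and limma 3.58.1 (voom with clone as a random effect) stood in for it as an alternative. DESeq2 1.42.0, another normalization, no filter, each clone left out and a replicate block were the others. The labels number the differentiations 1 and 2. Each clone holds 1 library of each number, so that clone sums balance the number. The steps were tested on simulated counts.

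Members, lists and tests were chosen with earlier results of these data known. Named were all members, pathway genes with an adjusted p under 0.05 or else the 2 of each role with the smallest p, the 3 genes nearest each member, COL1A1, LACTB, and the highest and lowest gene of each marker list. Some genes that this rule names are not reported here. Depth was 24153233 to 28406943 estimated counts per library.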

Additional observations from a re-analysis of the deposited data

Results flagged for a closer look

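A single library lay far from the other 5 of its genotype for 2 of the 20 sets of values examined (10 genes in WT and in LACTB KO). Chance flags about 1 in 20 where genes are not chosen by their values. LIF was chosen by the values examined here, so its flag is a description and nothing is read from the number of flags. LIF in WT was highest in clone K in differentiation 2, at 10.2 CPM, with a gap to the next library of 0.666 of the group's range against a critical value of 0.625. The same library had 2359 CPM of COL1A1. SOCS3 in LACTB KO was highest in clone A in differentiation 1, at 40.3 CPM, with a gap of 0.736 of the range, and COL1A1 was at 49.3 CPM in that library. On the log2 scale the gaps were 0.274 and 0.490 of the range and did not pass.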

How the results depend on the processing

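The number of pathway genes called was 0 under every alternative run for the genotype, differentiation and interaction comparisons. The genotype fit with differentiation as a replicate block had no term for clone, so a clone's libraries counted in it as separate samples. With that block, no call changed. Between genotypes 0 pathway genes were called, and LIF had a log2 fold change of -2.75, IL11 -2.73, IL6 -1.09 and OSM -1.29. The slopes of LIF and IL11 on COL1A1 were 0.63 and 0.73. For that slope 1 pathway gene was called, 2 without the expression filter, 0 without WT clone J differentiation 1 and WT clone K differentiation 2, and 0 to 2 with a clone left out.

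Sign changes were found among values with no call. Without the 2 stromal-rich libraries the slope was -0.0206 for IL6 and -0.25 for SOCS3, and IL11 between differentiations was 0.10 in DESeq2. With each clone left out, the log2 change between differentiations ranged from -1.37 to 0.91 for IL11, -0.16 to 0.92 for IL6, -0.0037 to 0.15 for IL6R, -0.0122 to 0.087 for IL6ST, -1.03 to 0.50 for LIF, -0.98 to 0.13 for LIFR, -0.51 to 0.56 for OSM, -0.35 to 0.16 for OSMR and -0.17 to 0.80 for SOCS3. The slope on COL1A1 ranged from -0.0198 to 0.0038 for IL6ST, -0.13 to 0.088 for SOCS3 and -0.0016 to 0.0456 for STAT3. For the genotypes, LIF ranged from -3.29 to -2.19, IL11 from -3.93 to -2.31, IL6 from -1.63 to -0.77, OSM from -1.47 to -0.80 and SOCS3 from -0.39 to 0.28. The causes were not tested. All genes called in the slope on COL1A1 numbered 460, 141 without WT clone K and 66 without the 2 stromal-rich libraries. IL11 and IL6 had too few counts for a fit to one differentiation alone.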
